A study of Mus musculus with 32 samples.

Results

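The dendrites of 16 single mouse hippocampal neurons are described here. They were taken as the 16 samples, out of 32 in the series, whose cell compartment is labelled as dendrite, and the other 16 samples enter no value given below. The neurons came from C57BL/6 mouse embryos at day 18 of gestation and were grown in culture for 15 days. Under a microscope the dendrites of an isolated neuron were severed from its cell body with a micropipette and drawn into a tube of their own, so that 1 sample holds the dendrites of 1 neuron. Poly-adenylated RNA was then amplified by the aRNA procedure, which copies RNA by repeated in vitro transcription, in 3 rounds for neurons 1 to 4 and in 2 rounds for neurons 5 to 16. No genotype or treatment separates the neurons. ERCC spike-ins, synthetic control RNAs, are labelled as added at a 4000000-fold dilution in neurons 3 to 16 and as absent in neurons 1 and 2, although the design text of the series has them added to every sample. The neurons were collected from several cultures and days, and the labels do not say which neuron came from which, so that the spread between samples holds neurons, cultures, days and libraries together.

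Dendrites carry most of the excitatory synapses of a neuron and contain ribosomes, mitochondria and a selection of mRNAs. These mRNAs are carried along microtubules in granules of RNA and protein, and some of them are translated near synapses when the synapses are active. Classical examples are the mRNAs of Map2, a microtubule protein of dendrites, of Camk2a, a kinase of the postsynaptic density, and of Arc, an immediate early gene.

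Reads counted on 3′UTRs numbered 646521 to 6954420 per dendrite sample. Between 3888 and 16684 genes had at least 1 read, with a median of 9730 genes and a mean of 10569.8 ± 3449 (SD, n = 16). No pair of samples held identical counts, with 0 of 120 pairs. The dendrites of neurons 15 and 16 stood apart with the fewest genes, 3888 and 6252, against 7823 to 16684 in the others. They are the only dendrites whose titles carry the letter P, so they cannot be told apart from that letter, whose meaning is not given. They also had the largest mitochondrial shares and the largest shares of exon-file reads on spike-ins, 17.1% and 7.55%. Results that rest on them are therefore given with and without them. Levels of single genes are given as CPM, the reads of a gene divided by the sample's reads on genes not encoded by mitochondria and scaled to 1000000, or, where stated, as a percentage of all 3′UTR reads. The reads carry no molecular identifiers and are not independent molecules, and the 3 reads that a count of 0 allows correspond to 0.482 CPM in the deepest sample and 4.75 CPM in the shallowest, for counting error only.

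**Figure D1:**
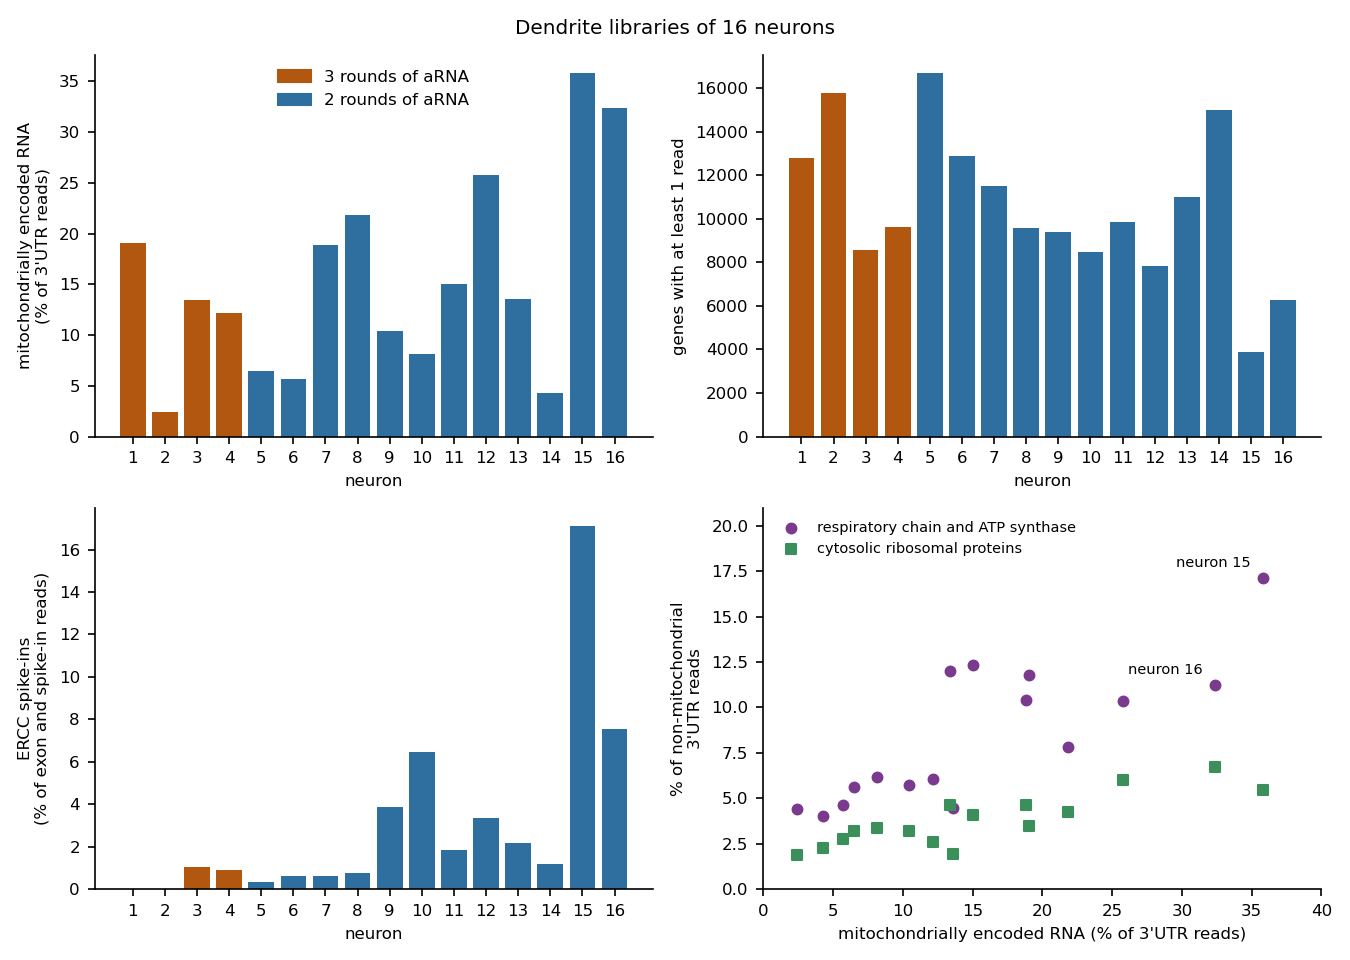
For the dendrites of neurons 1 to 16 (x axis of the bar charts), the bars show the percentage of 3′UTR reads on mitochondrially encoded genes, the number of genes with at least 1 read, and the percentage of exon-file reads on spike-ins, with brown for 3 rounds of amplification and blue for 2 rounds. The scatter plot sets the mitochondrial percentage against the percentages of the remaining reads on ribosomal protein and respiratory chain genes, and neurons 15 and 16 sit at 35.8% and 32.4% on the mitochondrial axis.

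Map2 was read in all 16 dendrites, at a median of 2462 CPM. The lowest value was 131 CPM in neuron 14, the next was 374 CPM in neuron 2, and the highest was 6476 CPM in neuron 8. These 2 low values lay apart from the other 14, of which the lowest was 1398 CPM. Map2 lies on chromosome 1 at 66175273 to 66442583 of GRCm38. Actb, the cytoplasmic actin of spines and growth cones, was also read in every dendrite, between 224 CPM (neuron 16) and 1072 CPM (neuron 6) with a median of 547 CPM. Dlg4, which encodes a main scaffold protein of the postsynaptic density, was far less even, with 3.41 CPM in neuron 16, 218 CPM in neuron 8 and a median of 90.2 CPM. All 12 markers of neurons in general had reads in at least 13 dendrites, and 6 of them had reads in all 16. No dendrite lacked neuronal markers, and the lowest summed neuronal level, 5786 CPM, was in neuron 15.

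RNA from the mitochondrial genome took a median of 13.5% of the reads, from 2.39% in neuron 2 to 35.8% in neuron 15 (mean 15.3% ± 9.80, SD, n = 16). With neurons 15 and 16 left out, the highest share was 25.8%, in neuron 12, and the mean was 12.7% ± 6.96 (SD, n = 14). Almost all of it was the large ribosomal RNA mt-Rnr2, with a median of 11.0% of all reads (1.39% to 27.6%), and the small ribosomal RNA mt-Rnr1, with a median of 2.20% (0.844% to 8.01%). These RNAs form the ribosomes inside mitochondria. mt-Rnr2 was the most-read gene in 13 dendrites, and Gm26870 was the most-read gene in the other 3. Reads on mt-Rnr2 outnumbered those on mt-Rnr1 in every dendrite, by a factor of 1.46 in neuron 2 to 6.56 in neuron 5. The mitochondrial tRNAs together held 0.131% ± 0.0731 (SD, n = 16), led by mt-Tt with a median of 0.0264%. The 3′UTR table has only 24 mitochondrial genes, the 2 ribosomal RNAs and 22 tRNAs, so that the mitochondrial mRNAs are outside this percentage, and 10 of the 23 with any read had reads in all 16 dendrites.

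The most-read genes outside the mitochondrial genes were of several kinds, with noncoding RNA, tubulin and subunits of respiratory enzymes at the head. They are called nuclear here, but Gm26924 and GU332589 had no GENCODE entry and their genome of origin was not tested. Gm26870, a noncoding RNA gene annotated on chromosome 9 at 3000282 to 3038313, led with a median of 1.01% of all 3′UTR reads. It ranged from 0.0318% in neuron 9 to 8.60% in neuron 2. It was the most-read nuclear gene in the dendrites of neurons 1 to 8, and Gm26924, which had no GENCODE entry, led in 5 of the other 8. Tuba1a, an alpha-tubulin of growing neurites, had a median of 0.522%, with 0.221% in neuron 15 and 4.31% in neuron 1. The share of Tuba1a in neuron 1 was by far the largest, since the next value was 1.20%, in neuron 2. Atp5g3, which encodes the ring subunit of ATP synthase, followed at 0.396% (0.141% to 1.19%), and Cox6a1, a subunit of cytochrome c oxidase, at 0.364% (0.0322% to 1.02%). Cox6c, Atp5b and Cox8a, further subunits of these enzymes, had medians of 0.285%, 0.264% and 0.235%. In all, 5 of the 20 most-read nuclear genes were respiratory chain or ATP synthase subunits.

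The rest of these 20 genes had varied roles. Gnas, the stimulatory G protein alpha subunit, had a median of 0.329% of all 3′UTR reads, and Tmsb4x, which binds actin monomers, had 0.268%. Tmsb4x was among the more even of them, with a lowest share of 0.0962% and a highest of 0.465%. Ndrg4 had a median of 0.296% and ranged from 0.0136% in neuron 15 to 1.14% in neuron 2. Rab3c, a GTPase of secretory vesicles, had 0.259%, and Chchd2, a mitochondrial protein, had 0.253%. Slc25a4, which exchanges ADP and ATP across the inner mitochondrial membrane, had 0.249% and was the only one of the 20 with no read in 1 of the dendrites, that of neuron 15. Oxct1, an enzyme of ketone body use, had 0.238%, and Ttc3 and Ywhab had 0.233% and 0.223%. GU332589, Map2 and Stmn2, a regulator of microtubule growth, closed the 20 at 0.221%, 0.214% and 0.207%. GU332589, which had no GENCODE entry, ranged from 0.0677% in neuron 2 to 0.561% in neuron 16.

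The 20 genes changed little with the neurons chosen and more when counts were divided by length. Of the 20, 19 were shared with the ranking without neurons 15 and 16, 18 with a ranking by the mean, and all 17 that the exon files hold with a ranking of exon counts. The ranking of exon counts was headed by Rn45s, which is not among the 20. When exon counts were divided by annotated length, 6 of the 20 were shared. The list per length held 15 respiratory chain and ATP synthase genes, Cox6a1 and Atp5g3 first, and 3 ribosomal protein genes, Rplp1, Rpl39 and Rps29. The paper reports that most reads lay close to a 3′ end. Dividing by length therefore favours short genes whatever their level, and the list per length does not rank abundance. Reads were not spread evenly over genes. The first 50% of the reads on nuclear genes fell on 173 genes in neuron 15 and on 938 genes in neuron 14, with a median of 498 genes.

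**Figure D2:**
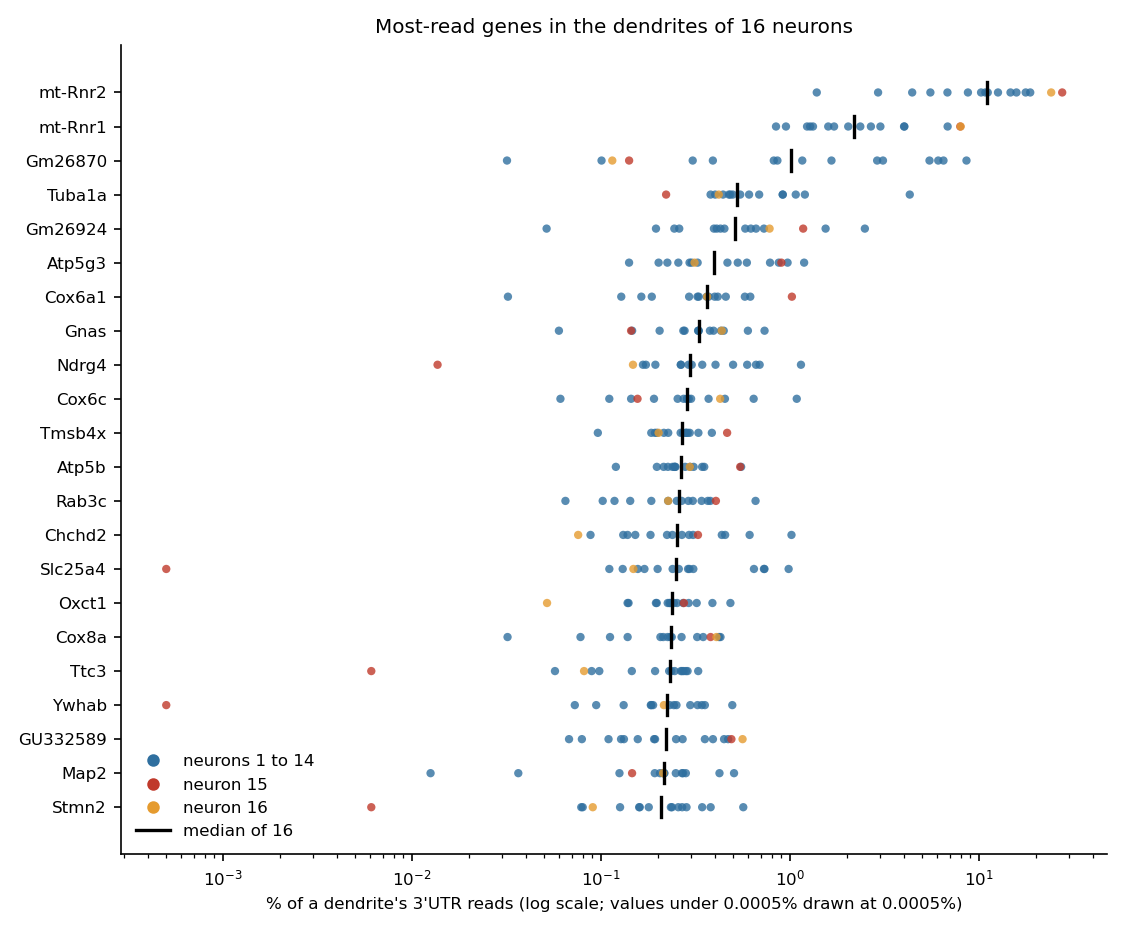
Each dot is 1 dendrite sample, drawn at the percentage of all its 3′UTR reads (log axis, values under 0.0005% drawn at that value) that fell on the gene named on the y axis, and the bars are medians over 16 dendrites. mt-Rnr2 stands out with a median of 11.0%, and neuron 15 (red) is the lowest dot of several nuclear genes, such as Tuba1a and Slc25a4.

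Of 28064 genes with reads in any dendrite, 871 had at least 1 read in all 16, which is 3.1%. At least 5 reads in each dendrite left 466 genes, and at least 10 reads left 379. These counts were set in part by single samples. Of the genes missing in just 1 dendrite, 513 were missing in neuron 15, 167 in neuron 16, and 3 to 81 in any other neuron. In the 14 dendrites other than these, 1830 genes (6.52%) had reads in every sample. At the other end, 5754 genes had reads in 1 dendrite. The 871 genes held 50.3% ± 10.9 of all 3′UTR reads of a dendrite and 42.0% ± 7.37 of the reads on nuclear genes (SD, n = 16).

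The lists with the largest shares of members read in every dendrite were those of respiration and of the ribosome. Of the nuclear-encoded respiratory chain and ATP synthase genes with any dendritic read, 72 of 78 had reads in all 16 dendrites, and of the cytosolic ribosomal protein genes 72 of 80 did, against 3.1% of all genes. Cell type markers, mitochondrially encoded RNAs, nuclear noncoding RNAs and reported dendritic mRNAs are left out of this order. Among the other lists, microtubule and neurofilament genes followed with 26 of 40. A small list of housekeeping genes had 7 of 12 and glycolytic enzymes had 6 of 16. The shares were lower for actin and spine cytoskeleton genes (12 of 35), presynaptic genes (10 of 34), postsynaptic scaffolds and kinases (9 of 36), chaperones (8 of 32) and translation factors (10 of 43). They were low for proteins of RNA transport and translational control (5 of 37) and receptors for glutamate and GABA (5 of 37). Of the lists ranked here, proteasome subunits (4 of 31) and splicing factors (2 of 52) had the lowest shares. The median level of the members was above that of all genes in each of these lists, and their counts were not compared with genes matched for level. In the 14 dendrites without neurons 15 and 16, 78 ribosomal protein genes, 75 respiratory genes, 13 genes of RNA transport, 12 receptor genes and 7 splicing factor genes had reads in every sample. So did 14 of 16 glycolytic enzymes, against 30 of 40 microtubule genes and 9 of 12 housekeeping genes. Proteasome subunits had 16 of 31, against 21 of 43 translation factors, and presynaptic genes had 22 of 34. The order of the lists thus rested in part on neurons 15 and 16.

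**Figure D3:**
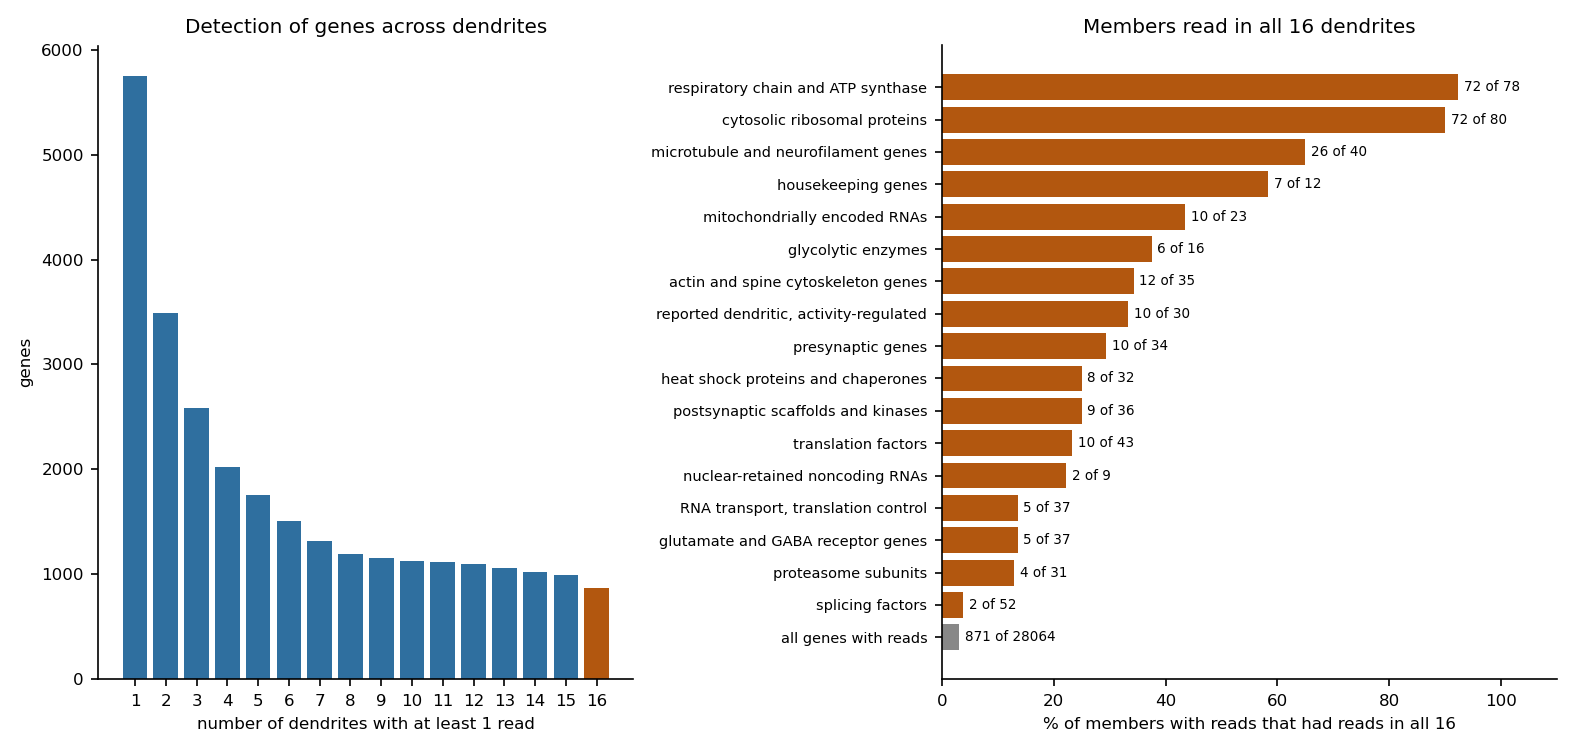
The histogram gives the number of genes (y axis) with at least 1 read in 1 to 16 dendrites (x axis), from 5754 genes in 1 dendrite to 871 genes in all 16. The bars for each gene list give the percentage of its members with reads in all 16 dendrites, the highest being 92.3% for respiratory genes and 90% for ribosomal proteins.

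Genes read in all 16 dendrites had short coding sequences. The median coding length was 951 bases for the 707 protein-coding genes among them, 1440 bases for those read in 8 to 15 dendrites and 1281 bases for those read in 1 to 7. Their 3′UTRs, at a median of 1284 bases, were shorter than the 1736 bases of genes read in 8 to 15 dendrites but longer than the 971 bases of genes read in 1 to 7. The gap in coding length was present at each level of expression. Between 16 and 64 CPM on average the medians were 1390.5 and 1509 bases, and between 256 and 512 CPM they were 742.5 and 1204.5 bases, for genes of all 16 and of 8 to 15 dendrites. The genes share their reads and their families, so these medians are a description. Besides protein-coding genes, 10.2% of the 871 were annotated as pseudogenes, against 12.8% of all genes with reads in any dendrite and 5.86% of those read in 8 to 15 dendrites. Some pseudogenes, such as Rps16-ps2 and Rps13-ps2, are named as copies of ribosomal protein genes, and their reads cannot be fully told apart from those of the parent genes.

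Ribosomal protein genes encode the proteins of the cytosolic ribosome, and their summed level was 34302 CPM at the median, from 18740.0 CPM in neuron 2 to 67062 CPM in neuron 16. Rpl39 had the highest median of them, 1257 CPM, between 563 CPM in neuron 13 and 2426 CPM in neuron 1. Rps24 followed at 1177 CPM (504 to 2516 CPM), and Rps2 at 1036 CPM, which ran from 84.0 CPM in neuron 2 to 2774 CPM in neuron 15. Ribosomal protein mRNAs carry an oligopyrimidine tract at their 5′ end, a sequence through which the mTOR pathway regulates their translation. The letters CTTTC, one form of such a tract, were therefore searched on the gene's strand in the 20 bases centred on the annotated start, using RefSeq promoter sequences of GRCm38.p6. They were found in 9 of the 60 ribosomal protein genes that matched by symbol (15%) and in 2.91% of all 27025 genes of the promoter table, a gene being counted if any of its annotated starts matched. Among genes read in all 16 dendrites that were not ribosomal protein genes the share was 3.61%, and among 65 respiratory genes it was 1.54%. On the opposite strand, as GAAAG, the letters were found in 3.33% of the ribosomal protein genes and 2.66% of all genes. No match says only that these letters are not in this window.
The 4 ribosomal protein genes with a match that had the most reads are printed to show where the tract lies, with CTTTC in capitals in 30 bases that begin 10 bases before the annotated start, 5′ to 3′ on the strand of the gene.
Rplp2, chr7:141447641-141447670, plus strand: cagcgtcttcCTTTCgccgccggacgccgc
Rpl38, chr11:114668570-114668599, plus strand: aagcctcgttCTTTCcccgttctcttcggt
Rps10, chr17:27635225-27635254, minus strand: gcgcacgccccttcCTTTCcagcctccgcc
Rpl35a, chr16:33056472-33056501, plus strand: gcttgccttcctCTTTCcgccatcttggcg
In Rplp2 and Rpl38 the letters begin at the annotated start, and in the other 2 genes they begin a few bases after it. Rpl35a has 3 annotated starts, of which 1 is shown. The median levels of these genes were 567 CPM for Rplp2, 501 CPM for Rpl38, 276 CPM for Rps10 and 244 CPM for Rpl35a.

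Respiratory chain and ATP synthase genes summed to a median of 70098 CPM, from 40432 CPM in neuron 14 to 171434 CPM in neuron 15. Their level was thus higher than that of the ribosomal proteins in each dendrite, as reads and not per length. Cox7c, a small subunit of cytochrome c oxidase, had a median of 2133 CPM, with 503 CPM in neuron 14 and 15224 CPM in neuron 1. Among translation factors, Eef1a1, which brings tRNAs to the ribosome, had 569 CPM (19.0 to 1183 CPM), and Eef2, which moves the ribosome along, had 531 CPM (100.0 to 1689.8 CPM). Eef1b2, an exchange factor for Eef1a1, was much less even, with 0 reads in neuron 13 and 2346 CPM in neuron 3.

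Genes of the synapse were present with a few abundant members and a long tail. Calm2 and Calm3 encode calmodulin, the calcium sensor of the postsynaptic kinases, and had medians of 1505 CPM and 785 CPM. Calm3 was among the most even genes of the lists, between 463 and 1168 CPM, whereas Calm2 had 0 reads in neuron 16. In the 14 dendrites other than neurons 15 and 16 the lowest value of Calm2 was 548 CPM. Dlgap1, a scaffold that binds Dlg4, had 999 CPM (310 to 3805 CPM). Of the receptors, Gabbr1, a subunit of the metabotropic GABA receptor, had the highest median, 568 CPM, followed among the AMPA receptor subunits by Gria1 with 323 CPM and Gria2 with 292 CPM. Gria2 spanned 0.161 CPM in neuron 9 to 2740.2 CPM in neuron 15. mRNAs of presynaptic proteins were read as well, with 1441 CPM for Cplx1 (748 to 4144 CPM) and 1433 CPM for Snap25, which had 0 reads in neuron 15 and at least 728 CPM in each of the 14 dendrites other than neurons 15 and 16. Among RNA-binding proteins of transport granules, Ybx1 had 698 CPM, Purb 675 CPM and Pura 590.2 CPM.

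Of 31 mRNAs often described as dendritic or regulated by activity, 30 had reads in some dendrite and 10 had reads in all 16. Among the 10 were Map2, Dlg4, Actb, Ppp1r9b, Tpt1, Rps29, Eef1a1, Eef2 and Kif5a. Kif5a, a kinesin motor, had a median of 596 CPM, and Ppp1r9b, the spine protein spinophilin, had 35.03 CPM. Several classical dendritic mRNAs were low and uneven. Camk2a had reads in 13 dendrites at a median of 30.0 CPM and at most 246 CPM, Ddn in 14 at 59.2 CPM, Bdnf in 15 at 40.8 CPM, Grin1 in 15 at 23.3 CPM, Shank1 in 13 at 1.91 CPM and Nrgn in 11 at 15.9 CPM. Other members of the list ranged more widely, with Ntrk2 in 15 dendrites at 226 CPM, Psd3 in 13 at 82.7 CPM, Homer1 in 15 at 48.3 CPM and Fmr1 in 10 at 1.14 CPM. Pcp4 had no read in any dendrite. Arc was read in 2 dendrites, at no more than 44.6 CPM. Of the immediate early genes, Fos reached 478 CPM in neuron 13 and had reads in 10 dendrites, Egr1 reached 271 CPM in neuron 4 with reads in 10, and Jun reached 182 CPM in neuron 10 with reads in 12. Npas4 (3 dendrites), Nr4a1 (4), Fosb (2), Egr3 (8), Egr4 (7) and Junb (9) had reads in 9 dendrites or fewer.

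Noncoding RNAs that are mostly kept in the nucleus were also read. Malat1 had reads in 14 dendrites at a median of 255 CPM, Meg3 in 15 at 243 CPM, and Kcnq1ot1 in 16 at 271 CPM. Their list summed to 201 CPM in neuron 4 and 2695 CPM in neuron 2. Splicing factors, whose proteins act in the nucleus, summed to a median of 2949 CPM. The part of RNA from outside the dendrites in these values was not tested.

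Levels of single genes differed widely between dendrites. The SD of log2(CPM + 1) over the 16 dendrites had a median of 2.86 over 3703 genes with a mean of at least 50 CPM, and 2.53 over 3790 genes without neurons 15 and 16. Counts of 0 were part of this, and absence of an RNA cannot be told apart from its loss during amplification. Of the 3703 genes, 2970 (80.2%) had 0 reads in at least 1 dendrite, and 379 of these had at least 1000 CPM in another. Leaving out neurons 15 and 16 gave 2213 of 3790 (58.4%) and 66, and equal read numbers in all samples gave 3125 of 3661 (85.4%) and 420. The genes at 0 numbered 24 in neuron 5 and 2161 in neuron 15, with 987 in neuron 12, the highest of the other 14.

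The 20 genes of largest SD for their mean, measured as the excess over the 200 genes nearest in mean, were in good part genes with few or no reads in neurons 15 and 16. Of the 20, 19 had at most 10 CPM in neuron 15 and 6 had so little in neuron 16, and 14 of them exceeded 10 CPM in each of the other 14 dendrites. Slc25a4 (SD of 3.07 on the log2 scale), Ywhab (2.72) and Snap25 (2.68) were of this kind. Map1b, a microtubule protein of growing neurites, had 2.09 CPM in neuron 15, 19.1 CPM at the lowest of the other 14, and 2705 CPM in neuron 9. Once neurons 15 and 16 were left out, 6 of the 20 stayed among the most variable. Nrsn1, a vesicle protein of neurons, led both rankings, with 0 reads in neurons 14 and 15, 1.44 CPM in neuron 4, a median of 798 CPM and 5776 CPM in neuron 16. Hapln1, which links the hyaluronan matrix around neurons, had a lowest value of 0.720 CPM among the 14 dendrites and a highest of 3035 CPM in neuron 9. Scg2, a secretory granule protein, had reads in 11 dendrites and reached 1162 CPM in neuron 14. Slc32a1 and Npy, markers of inhibitory neurons, joined the list without neurons 15 and 16, and so did Dynlt3, a dynein light chain, and Gm26870.

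At the even end, ribosomal protein genes varied less than genes of like mean. Their SD lay below that of the nearest genes for 75 of 80, with a median difference of -0.47 on the log2 scale, against 4838 of 9610 genes overall. The median difference was -0.25 without neurons 15 and 16. Respiratory genes lay below for 57 of 78, at -0.18, and at -0.06 without neurons 15 and 16. The 20 genes of smallest SD for their mean included Fau (100.4 CPM, SD of 0.87) and Rpl35 (118 CPM, 0.87), 7 pseudogenes and the phosphatase regulator Ppp1r7 (103 CPM, 0.82). Of these 20 genes, 11, such as Mir703, Fau and Brsk1, were also in the 20 without neurons 15 and 16, and 7 were in the 20 from exon counts. Fau was not among the 7, and its median from exon counts was 250 CPM. Calm3, outside the 20, had an SD of 0.39. Interneuron markers leaned the other way, with 1 of 9 below the nearest genes and a median difference of 0.33 in both sets of dendrites.

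**Figure D4:**
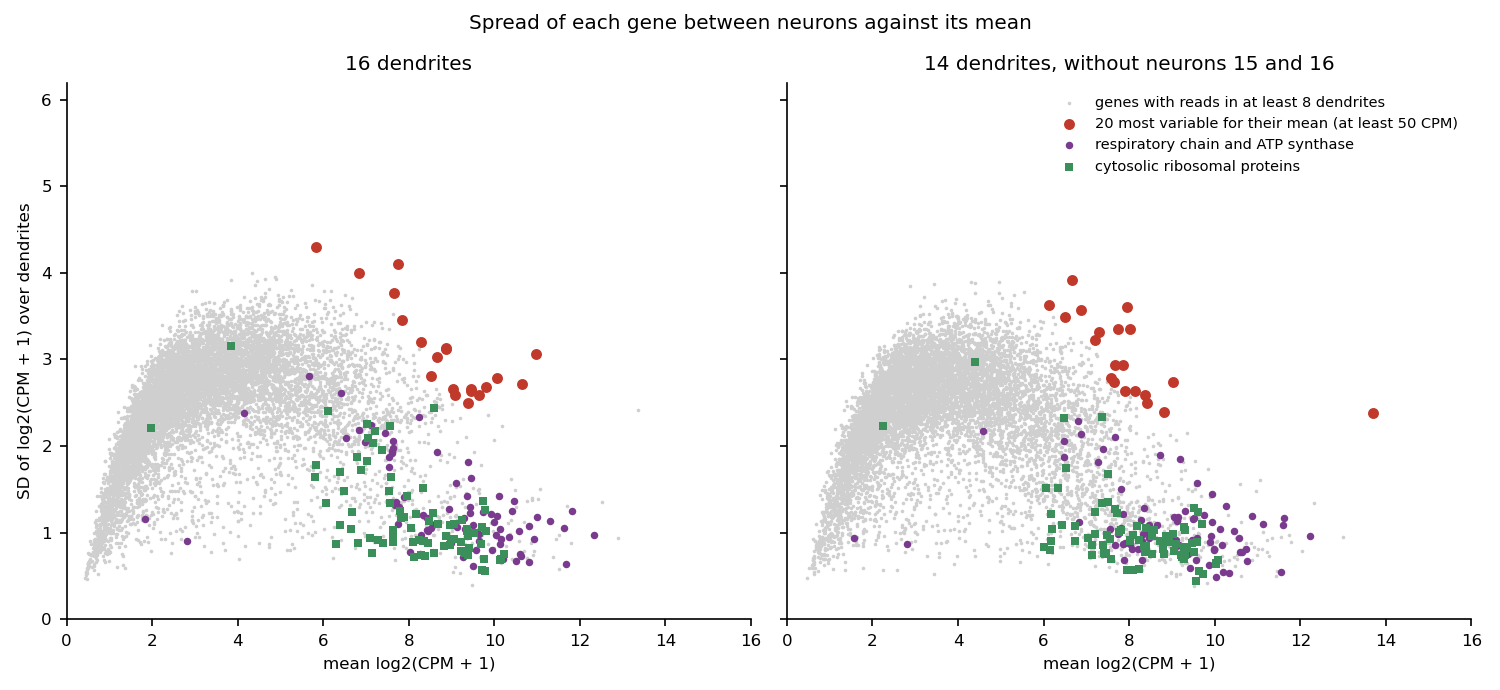
Each point is a gene, with its mean log2(CPM + 1) on the x axis and its SD over the dendrites on the y axis, for all 16 dendrites and for the 14 without neurons 15 and 16. Ribosomal protein genes (green) lie under the cloud, with a median difference of -0.47 in the 16 dendrites and -0.25 in the 14, and the 20 most variable genes (red) lie above it.

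The dendrites carried mRNAs of inhibitory transmission. Gad1 and Gad2, the enzymes that make GABA, were read in all 16 dendrites. Gad1 ranged from 109 CPM in neuron 15 to 6987 CPM in neuron 8 with a median of 1993 CPM, and Gad2 from 485 CPM in neuron 1 to 4386 CPM in neuron 9 with a median of 1626 CPM. Their sum with Slc32a1, the vesicular GABA transporter, was 1829 to 11193 CPM with a median of 4314 CPM. Slc17a7 and Slc17a6, the vesicular glutamate transporters, summed to 0 to 301 CPM with a median of 65.7 CPM, less than the GABA genes in 16 of 16 dendrites. The exon counts gave medians of 2182 CPM for Gad1, 1776 CPM for Gad2 and 57.1 CPM for Slc17a7. The hippocampus holds mostly excitatory pyramidal neurons, and the markers listed for them here were sparse. The paper counts Grin1, Mtap2 (Map2) and Neurod6 as pyramidal markers and reports high levels of them. Of these, Map2 was read in all 16 dendrites. Neurod6 had reads in 11 dendrites and at most 230.5 CPM, and Neurod2 had at most 104 CPM except in neuron 15, where it had 3427 CPM. Markers of interneuron classes varied from neuron to neuron. Reln, a secreted matrix protein, was read in all 16 (6.86 to 2163 CPM, median 996 CPM), Npy in 14 (0 to 992 CPM) and Pvalb in 15, with 2482 CPM in neuron 11 against a median of 123 CPM. Sst and Vip had reads in 2 dendrites each, at no more than 1.58 and 7.68 CPM. Other cells of the culture were not measured here, so whether this RNA came from the neuron itself was not tested.

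**Figure D5:**
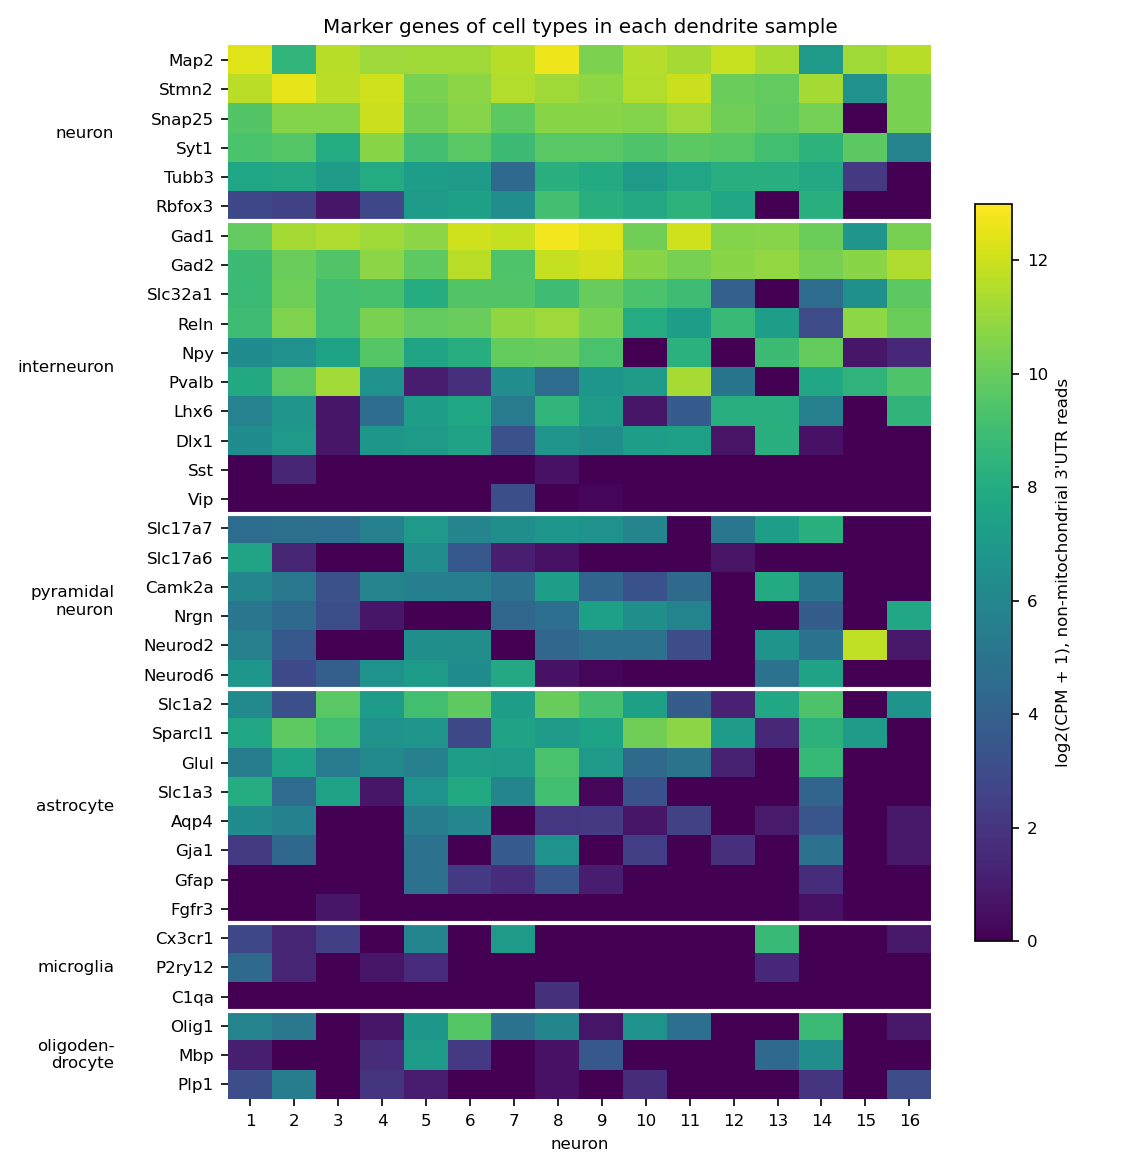
The heat map gives log2(CPM + 1) of marker genes of neurons, transmitter types and glia (rows) in the dendrites of neurons 1 to 16 (columns). Gad1 and Gad2 are filled in every column, Slc17a7 reaches 301 CPM at most, and glial genes are filled in some columns, such as Olig1 in neuron 6 with 753 CPM.

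RNA of glial genes was found in every dendrite, at low and uneven levels. The list of astrocyte markers summed to a median of 1143 CPM, from 119 CPM in neuron 16 and 145 CPM in neuron 15 to 3128 CPM in neuron 8. The highest medians were those of Sparcl1, a secreted synaptic protein, with 163 CPM and up to 1707 CPM in neuron 11, and of Slc1a2, a glutamate transporter, with 159 CPM and up to 1001 CPM in neuron 8. Some neurons express these genes too. The 8 markers that define astrocytes (Gfap, Aqp4, Slc1a3, Aldh1l1, Gja1, Sox9, Fgfr3 and Mlc1) summed to a median of 99.7 CPM, with 0 in neuron 15 and 705 CPM in neuron 8, where Slc1a3 alone had 542 CPM. Of the 20 astrocyte markers 19 had reads in some dendrite, 1 (Mt3, up to 18.4 CPM) had reads in all 16, and Gjb6 had none. Gfap had reads in 6 dendrites and at most 27.6 CPM, and Fgfr3 in 2 at no more than 0.708 CPM.

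Markers of other glia were also read in most dendrites, with high values in a few. Oligodendrocyte lineage markers summed to a median of 80.6 CPM, from 2.09 CPM in neuron 15 to 794 CPM in neuron 6. Most of the latter was Olig1, a transcription factor of the lineage, with 753 CPM in that dendrite. Mbp, the myelin protein, was at 135 CPM or less, and Olig2 and Sox10 had reads in 1 dendrite each. Microglial markers summed to a median of 31.9 CPM, with 0 in neurons 12 and 15 and 484 CPM in neuron 13, where Cx3cr1 had 435 CPM. C1qa had reads in 1 dendrite and Tyrobp in none. Endothelial markers summed to at most 139 CPM, fibroblast and pericyte markers to at most 180.0 CPM, and cardiomyocyte markers, a list with no source in the culture, to at most 10.2 CPM. Whether glial RNA accompanied the number of genes read was examined across the 16 dendrites. The astrocyte sum gave r = 0.31 (rho = 0.33, permutation p = 0.247 and 0.215), and r was -0.0037 without neurons 15 and 16. No relation was thus detected at this number of neurons.

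The mitochondrial share of a dendrite varied with several other features of the sample. Each of 10 relations was examined over the 16 neurons with a two-sided permutation test, with adjusted p-values by the Benjamini-Hochberg procedure over the 10. The mitochondrial percentage rose with the percentage of the remaining reads on ribosomal protein genes (r = 0.85, permutation p = 5e-05, adjusted p = 0.0005, rho = 0.82, permutation p = 0.0002). It also rose with the percentage on respiratory genes (r = 0.81, permutation p = 0.00018, adjusted p = 0.0009, rho = 0.78, permutation p = 0.00056). Neurons 15 and 16 lay farthest out, and without them r was 0.78 and 0.71. Among the 12 neurons of 2 rounds alone, r was 0.87 and 0.85. The 4 neurons of 3 rounds were too few for a value of their own. These percentages share the library and its depth but not their denominators, since the mitochondrial reads were left out of the others.

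The mitochondrial percentage fell with the number of genes read (r = -0.79, permutation p = 0.00035, adjusted p = 0.00115, rho = -0.69, permutation p = 0.00424). Without neurons 15 and 16 r was -0.62 (permutation test, adjusted p = 0.0481). The rank relation did not pass there (rho = -0.53, permutation test, adjusted p = 0.106). In the 12 neurons of 2 rounds r was -0.83. Respiratory and ribosomal protein percentages rose together (r = 0.78, permutation p = 0.00046, adjusted p = 0.00115, rho = 0.83, permutation p = 0.00018), with r = 0.81 without the 2 neurons farthest out in respiratory share, 11 and 15, and r = 0.79 within the neurons of 2 rounds. The relation with the spike-in percentage rested on neurons 15 and 16. Over the 14 neurons with spike-ins r was 0.68 (permutation p = 0.00768, adjusted p = 0.0154, rho = 0.46, permutation p = 0.1002), and without these neurons it was 0.0042. Samples with more reads did not have more genes. Ranks of reads and genes ran in opposite directions (rho = -0.62, permutation p = 0.0119, adjusted p = 0.0239), while r missed the threshold (r = -0.49, permutation p = 0.0502, adjusted p = 0.0741). It was -0.71 without neurons 9 and 11, the deepest, and -0.37 within the neurons of 2 rounds. The relations of the mitochondrial percentage with reads (r = 0.27, rho = 0.44), with nuclear noncoding RNA (r = -0.49, rho = -0.46) and with astrocyte markers (r = -0.45, rho = -0.49) had adjusted p-values of 0.0741 to 0.319 in the permutation tests.

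The dendrites were compared by rounds of amplification, 4 of 3 rounds against 12 of 2 rounds. The label of no spike-in falls on neurons 1 and 2, both of 3 rounds, and was not compared separately. In edgeR's quasi-likelihood test, 1 of 9627 genes (0.0104%) differed at an adjusted p of at most 0.05. This gene was Tuba1a, whose values in the 4 dendrites of 3 rounds were 53232 CPM, 12292 CPM, 5113 CPM and 12220.3 CPM for neurons 1 to 4. In the 12 dendrites of 2 rounds it lay between 3445 and 11282 CPM with a median of 6309 CPM, so that the groups overlapped. The log2 fold change was 1.97 ± 0.38 (SE, edgeR adjusted p = 0.00841), and without neuron 1 it was 0.74 with an adjusted p of 1.00, and no gene was called. With no filter on low counts Tuba1a was not called either (log2 fold change of 1.88, edgeR adjusted p = 0.179). No gene was called lower with 3 rounds (0 called), but few of the genes lowered in simulated data were called either. An unadjusted p under 0.05 was found for 440 genes. DESeq2 called 23 genes, 9 higher and 14 lower, and the median log2 fold change over all genes was -0.26 in edgeR and 0.11 in DESeq2. Of 9 summary values, among them reads, genes read, mitochondrial share and astrocyte sum, none gave a detected difference between the groups. The lowest p was 0.179 (exact two-sided permutation test, 1820 splits, adjusted p = 0.902). The mean mitochondrial share was 11.8% ± 6.93 (SD, n = 4) with 3 rounds and 16.5% ± 10.6 (SD, n = 12) with 2 rounds. Rounds cannot be told apart from the letters in the sample titles, which are nested in them and whose meaning is not given.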

How the data were processed

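RNA of 16 dendrite samples was analysed as deposited counts of reads. The authors trimmed adapters and poly-A, aligned reads to mm10 with STAR (2.4.0 in the submitters' processing notes) and counted uniquely mapped reads with VERSE. The deposited counts are whole numbers without normalization, on the merged 3′UTRs of 44081 genes, and in separate files on the exons of 23453 genes and 92 spike-ins. The exon files hold no mitochondrial genes. Isoform counts, soma samples and the authors' gene lists were not used. Reads of near-identical copies are lost or split by unique mapping.

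CPM were computed over reads on genes not encoded by mitochondria. Types, positions and lengths came from GENCODE M21 on GRCm38, which matched 33937 genes by symbol. The comparison of rounds took genes read in 8 or more dendrites and used R 4.3.3 and edgeR 4.0.16 (TMM, robust quasi-likelihood test, Benjamini-Hochberg), with DESeq2 1.42.0 as an alternative. The test was checked on simulated data of 8759 genes. Of 48 genes raised by a log2 fold change of 6, 30 were called, and of 36 lowered by 6, 4 were called. Of 47 genes raised by 4, 13 were called, and of 39 lowered by 4, 0 were called. Of 8589 unchanged genes 0 were called, and their median estimate was -0.62. Other values came from SciPy 1.17.1, pandas 2.3.3 and NumPy 2.4.6 under Python 3.11, and relations used 100000 permutations. Variability was the SD of log2(CPM + 1) minus the median SD of the 200 genes nearest in mean, for a mean of at least 50 CPM.

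Named genes were the markers of the sample, the 20 most-read, the 20 most and 20 least variable, up to 6 members of highest median in each list, all reported dendritic mRNAs, cell type markers of at least 100 CPM in any dendrite, and called genes, of which those the results turn on are given. Calm3 as an even gene, low or absent markers and the genes of the promoter windows were picked after their values were seen. The members and lists were chosen with earlier results of these data known. P-values measure the spread between samples, each a separate neuron. Alternatives covered the test, scaling, filters, exon counts, pseudocount, gene length, the minimum reads and dendrites, samples reduced to 646521 reads, and neurons left out. Leaving out neurons 15 and 16 was added after seeing the data. A few genes that the rule had included are not reported here.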

Additional observations from a re-analysis of the deposited data

Results flagged for a closer look

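In groups of 4 to 10 samples, here the 4 dendrites of 3 rounds, 37 measures were examined for a sample far from the others, and 2 were found, where chance gives about 1 in 20. The ratio of 3′UTR reads to exon reads was 1.498 in neuron 1, with a gap to the next sample of 0.957 of the range of the 4. The ratio of mt-Rnr2 to mt-Rnr1 reads was 1.46 in neuron 2, with a gap of 0.835 of the range. Neurons 1 and 2 are labelled as having no spike-in, yet their exon files hold 65 and 72 reads on spike-ins, which are 0.00956% and 0.0137% of the exon-file reads, against 0.344% to 17.1% in the 14 dendrites labelled with spike-ins. The design text of the series and the study's methods describe spike-ins in all samples, which goes against the label of these neurons.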

How the results depend on the processing

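No paired analysis was possible because each neuron gives 1 dendrite sample and the neurons of 3 rounds share no pairing with those of 2 rounds. The count of genes that differed between rounds, 1, became 23 with DESeq2, 774 with no filter on low counts, 2 with equal read numbers, 0 without neurons 1 and 2, 8 without neuron 15 and 4 without neurons 15 and 16, and 0 to 1 when each neuron of 3 rounds was left out. Differences of 3 minus 2 rounds changed sign when a single neuron was left out, with ranges of -0.912 to 1.61 percentage points for the respiratory share, -256 to 576 CPM for nuclear noncoding RNA, -2.96 to 3.07 percentage points for the 10 most-read genes and -0.0345 to 0.0576 for the ratio of 3′UTR to exon reads. None of these differences had passed the test. The relation of mitochondrial percentage with nuclear noncoding RNA passed with exon counts (r = -0.55, permutation test, adjusted p = 0.0431), that with the spike-in percentage did not pass without neuron 15 (r = 0.436) or without neurons 15 and 16 (r = 0.00417), and that of astrocyte markers with genes read was -0.00373 without both. Genes read in all dendrites numbered 466 with 5 reads, 379 with 10 reads, 1863 in at least 15 dendrites, 1384 without neuron 15 and 1830 without neurons 15 and 16. The mean mitochondrial percentage was 0.131 without the ribosomal RNAs, 6 of the 20 most-read genes stayed per kilobase, the median SD was 1.78 with a pseudocount of 10, and the mean astrocyte sum was 164 CPM for the defining markers. The cause of these changes was not tested, beyond the fewer samples or stricter minimum that some of them consist of. The other 135 values for the main results stayed on their side of the threshold or within the spread. The mitochondrial percentage could not be taken from the exon counts. Depth limits single genes to the 3 reads stated above, and with 4 against 12 neurons and a common dispersion of 3.65 the comparison of rounds could detect only large differences.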

Other observations

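Gm26870 did not overlap between the dendrites of neurons 1 to 8, whose titles carry the letters B, H and I, and those of neurons 9 to 16, whose titles carry M, N and P. It had 14879 to 88108 CPM (median 48205 CPM) in the former and 355 to 9507 CPM (median 3156 CPM) in the latter. The spike-in percentage also lay apart, though narrowly, at 1.05% or less in neurons 1 to 8 and 1.18% or more in neurons 9 to 16. Neurons 1 and 2 are labelled as having no spike-in, and neurons 3 to 8 had 0.344% to 1.05%. The meaning of the letters is not given in the sources used here, and the split was noticed in the data and not tested. The 15 pairs of dendrites with the same title letter had a median Spearman correlation of 0.45 across 9610 genes, and the 105 pairs with different letters had 0.32. Without neurons 15 and 16 these were 0.45 and 0.38. Pairs that include neuron 15 had a median of 0.19. Genes are not independent replicates, and pairs share neurons, so these are descriptions.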
